A study of Mus musculus with 16 samples.

Results

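10 genes of glutathione metabolism were followed in the left ventricle of mice: the glutathione peroxidases Gpx1, Gpx3 and Gpx4, the glutathione transferases Gsta4, Gstm1, Gstm2, Gstk1 and Gsto1, and the supply enzymes Gclc and Gsr. They were chosen by name, and every probe set that the array annotation assigned to exactly 1 of them was used, which gave 17 of 45101 probe sets. All 10 were among the 10916 of 18193 genes bright enough to be tested. They are encoded on chromosomes 9 (Gpx1, Gsta4 and Gclc), 11 (Gpx3), 10 (Gpx4), 3 (Gstm1 and Gstm2), 6 (Gstk1), 19 (Gsto1) and 8 (Gsr).

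Glutathione is a small thiol-containing peptide that cells keep at high concentration. Glutathione peroxidases use it to reduce hydrogen peroxide and lipid peroxides, and glutathione transferases join it to reactive compounds such as the aldehydes released by lipid peroxidation. Glutamate cysteine ligase, whose catalytic subunit is Gclc, starts its synthesis, and glutathione reductase (Gsr) returns the oxidised form to the reduced one with NADPH. In the heart this system removes peroxides that arise from mitochondrial respiration.

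The study compared mice lacking the nuclear receptor PPARalpha (PPARalpha-/-, here KO), a regulator of fatty acid oxidation genes, with wild-type (WT) mice. Animals of each genotype had transverse aortic constriction (TAC), which narrows the aorta and loads the left ventricle with pressure, or a sham operation, and were studied at 28 days. The 4 groups were KO TAC, KO sham, WT TAC and WT sham, each with 4 Affymetrix 430 2.0 arrays. The labels give no strain, sex or age, and do not say whether replicates were separate animals, so p-values rest on the variation among these arrays, part or all of which may be technical.

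Values are the authors' scaled signal intensities. Differences were tested on log2 signal with limma, in 1 fit to all 16 arrays, and a gene counted as called where its p, adjusted by Benjamini-Hochberg over the 10916 genes, was under 0.05. Errors of log2 differences are standard errors of that fit, and errors of mean signals are SD over the 4 arrays of a group. Where a gene had several probe sets, the brightest represented it. Median signals of the arrays lay between 108.3 and 163, and mean correlations with the other arrays of the group between 0.94 and 0.969. The number of arrays limits the precision of every value. Ppara itself averaged 461 ± 65.4 in KO TAC, 616 ± 91.3 in KO sham, 1759 ± 354 in WT TAC and 2009 ± 340 in WT sham. It was lower in KO at both operations, by log2 differences of -1.92 ± 0.17 under TAC (limma, adjusted p = 1.18e-05) and -1.70 ± 0.17 after sham (adjusted p = 5.71e-05).

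Gpx3, Gstm1 and Gstk1 carried the called changes under load, and the sequences around their RefSeq gene starts are shown because these members moved in opposite directions. Each window runs 5′ to 3′ on the gene's strand from 250 bases before to 50 bases after the start, on assembly GRCm38.p6. Capitals mark AGGTCA on either strand, the half-site read by nuclear receptors such as PPARalpha.
Gpx3, chr11:54902604-54902903, plus strand: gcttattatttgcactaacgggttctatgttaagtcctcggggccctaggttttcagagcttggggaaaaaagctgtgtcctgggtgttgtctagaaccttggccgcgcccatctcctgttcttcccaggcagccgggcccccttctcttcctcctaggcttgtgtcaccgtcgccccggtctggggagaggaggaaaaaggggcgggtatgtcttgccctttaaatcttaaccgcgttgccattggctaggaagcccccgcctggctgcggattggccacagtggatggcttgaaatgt
Gstm1, chr3:108017769-108018068, minus strand: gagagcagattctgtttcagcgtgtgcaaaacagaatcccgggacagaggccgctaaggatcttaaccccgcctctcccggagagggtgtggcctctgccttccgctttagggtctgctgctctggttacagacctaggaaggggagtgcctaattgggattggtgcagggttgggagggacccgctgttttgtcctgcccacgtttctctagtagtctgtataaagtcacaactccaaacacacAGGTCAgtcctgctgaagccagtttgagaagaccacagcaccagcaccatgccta
Gstk1, chr6:42245685-42245984, plus strand: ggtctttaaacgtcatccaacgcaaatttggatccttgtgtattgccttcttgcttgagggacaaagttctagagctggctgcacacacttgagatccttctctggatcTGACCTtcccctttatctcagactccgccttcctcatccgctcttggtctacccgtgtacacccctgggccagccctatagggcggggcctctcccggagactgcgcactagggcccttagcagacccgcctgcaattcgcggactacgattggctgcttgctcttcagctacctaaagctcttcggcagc
The Gpx3 window held no AGGTCA. RefSeq gives Gstm1 a second gene start, and its window, chr3:108017924-108018223 on the minus strand, held no AGGTCA. The Gstm1 window shown held AGGTCA starting at base -5 and TATAAA starting at base -30 from the gene start, and the Gstk1 window held AGGTCA on the opposite strand, at base -141. RefSeq windows were found for 7 of the 10 members, 11 windows in all, and 3 of the 11 held AGGTCA on either strand, against 16.3% of all 32851 mouse windows of this length. The third was a window of Gpx4. No window was found for Gsta4, Gclc or Gsr. Gpx4 and Gstm1 had more than 1 window each, some of them overlapping, so the 11 are not separate promoters. The direct repeat of AGGTCA with 1 base between the copies, searched on both strands and overlapping the half-site, was in 0 of the 11, against 0.0396% of all windows, and the same repeat of AGGNCA in 0, against 0.381%. TGACNNNGC, the core of the antioxidant response element, was on either strand in 0 of the 11, against 12.4% of all, and TATAAA in 1, against 13.6%. A match is a description of these letters and not a mapped binding site.

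Among the peroxidases, Gpx3 rose with TAC in KO hearts and was higher there than in WT hearts under TAC. It encodes the secreted selenium-dependent peroxidase of plasma. Its signals were 11859.7, 12076, 14003 and 13002 in KO TAC. They were 8019, 8229, 7482 and 10369.6 in KO sham, against 7153, 6489.5, 8219.5 and 6993 in WT TAC and 6878, 7010.2, 7327 and 6669 in WT sham. The lowest KO TAC array lay above the highest array of each other group, and WT TAC overlapped WT sham.

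Mean Gpx3 signals were 12735 ± 980 in KO TAC, 8525 ± 1269 in KO sham, 7214 ± 728 in WT TAC and 6971 ± 276 in WT sham. Gpx3 rose with TAC in KO hearts by 0.59 ± 0.11 log2 (1.50-fold, adjusted p = 0.0121 in limma). Under TAC it was higher in KO than in WT by 0.82 ± 0.11 log2 (1.77-fold, adjusted p = 0.000949). The WT TAC response was 0.045 ± 0.11 log2 (adjusted p = 0.956), with a 95% interval from -0.19 to 0.28. The difference between the TAC responses, KO minus WT, was 0.54 ± 0.16 log2, with an unadjusted p of 0.00367 and an adjusted p of 0.324 in limma, so it did not pass. After sham, all 4 KO signals lay above all 4 WT signals, with a difference of 0.28 ± 0.11 log2 that did not pass (adjusted p = 0.45).

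The call for Gpx3 under TAC in KO was lost when only the arrays compared were fitted (adjusted p = 0.0766) and when the 3 arrays of most extreme spike-in signal were left out (WT TAC replicate 3, KO TAC replicates 2 and 3), where the difference was 0.55 and the adjusted p 0.106. The difference between KO TAC and WT TAC was called under all 15 alternatives tried, at 0.82 to 1.01, and with each of the 8 compared arrays left out in turn, at 0.77 to 0.89.

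Markers of other cells moved with KO TAC. In whole-tissue RNA fewer cells of a type and less RNA per cell cannot be told apart. The summed signal of 9 fibroblast markers, with none at the floor on all arrays, was 67772.6 to 75829.7 in KO TAC, 45789.4 to 54052.5 in KO sham, 48032.1 to 63004.5 in WT TAC and 47021.7 to 51238 in WT sham. As for Gpx3, KO TAC lay above all other groups. The same 4 of 9 fibroblast markers, the matrix genes Postn, Col1a2, Col3a1 and Lum, were higher in KO TAC than in KO sham and than in WT TAC. Of all genes, 1.58% and 1.32% were called higher there. In each comparison 7 of 9 differences were positive. Tcf21 and Dpt did not rise, at 693.7 to 1114.3 and 3882.9 to 5413.5 in KO TAC, against 849.1 to 1125.8 and 4665.6 to 6016 in KO sham. The part of the fibroblast markers in the Gpx3 difference was not tested.

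Gpx1, the cytosolic and mitochondrial peroxidase that reduces hydrogen peroxide, was not called in any of the 5 comparisons. Its signals were 9122, 8108, 6825 and 7051 in KO TAC, 6545, 8346, 6919 and 7521 in KO sham, 6382, 7292, 6930.4 and 5721 in WT TAC, and 7226, 6370.1, 5138 and 5273 in WT sham. All groups overlapped. The genotype difference was 0.24 ± 0.14 log2 under TAC (adjusted p = 0.413) and 0.30 ± 0.14 log2 after sham (adjusted p = 0.576).

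Gpx4, which reduces phospholipid hydroperoxides within membranes and restrains ferroptosis, had group means of 26993 ± 2103 in KO TAC, 29224 ± 3105 in KO sham, 31009 ± 2083 in WT TAC and 28610 ± 795 in WT sham. KO TAC was -0.20 ± 0.10 log2 from WT TAC (adjusted p = 0.308) and -0.11 ± 0.10 from KO sham (adjusted p = 0.635). Its other probe set gave -0.13 and -0.06 for the same comparisons, and the sets correlated at r = 0.80 over the 16 arrays. The Gpx4 groups overlapped in each of the 4 group comparisons.

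**Figure D1:**
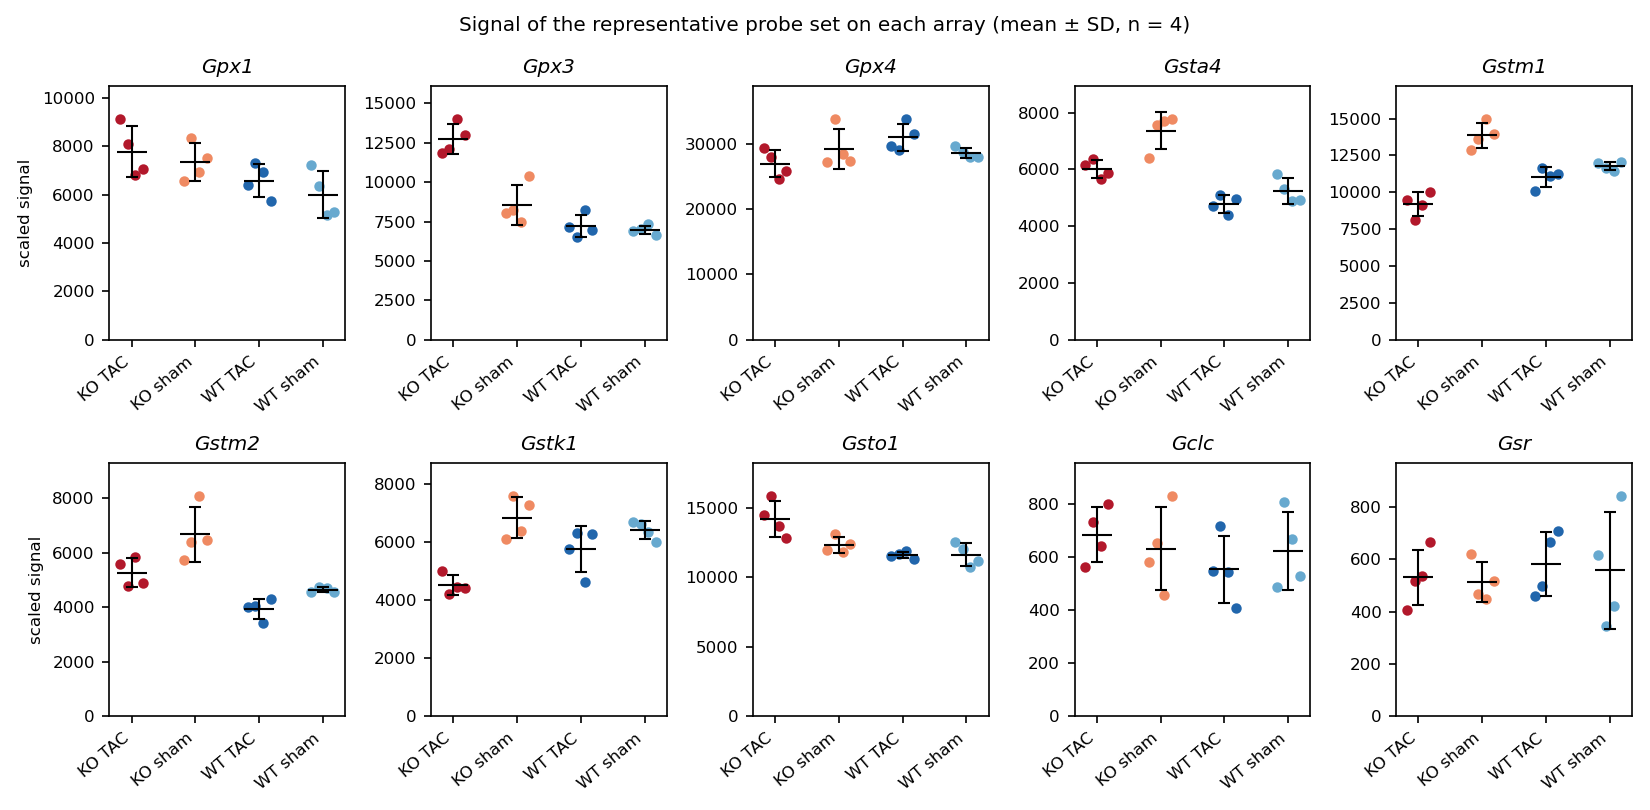
Signal intensity of the 10 genes on each of the 16 arrays by group (points, 4 arrays per group, with mean ± SD; the y axes are scaled signal, from 0). In the Gpx3 panel the 4 KO TAC arrays, from 11859.7 to 14003, lie above all others, whereas in the Gstm1 panel the 4 KO TAC arrays, from 8148 to 10009, lie below all others.

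Of the 5 transferases, Gsta4 was higher in KO than in WT hearts after sham, and Gstm1 and Gstk1 fell with TAC in KO hearts. Gsta4 conjugates hydroxynonenal and related products of lipid peroxidation. Its signals were 6156, 6355, 5677 and 5856 in KO TAC and 6394.5, 7557, 7721 and 7773 in KO sham. In WT hearts they were 4715, 5086, 4385 and 4954 after TAC and 5833, 5314, 4886 and 4914 after sham. The KO sham arrays all lay above the WT sham arrays, and the KO TAC arrays all above the WT TAC arrays.

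Gsta4 was higher in KO sham than in WT sham by 0.49 ± 0.10 log2 (1.41-fold, limma adjusted p = 0.0239), and it was the member called in that comparison. Under TAC the genotype difference was 0.33 ± 0.10 log2 and did not pass (adjusted p = 0.0935). KO TAC lay below KO sham on every array, at -0.29 ± 0.10 log2 (adjusted p = 0.138), and the difference between the TAC responses was -0.16 ± 0.14 log2 (adjusted p = 0.722). The call after sham was lost under several settings. The adjusted p was 0.536 with arrays centred on their medians, where the difference was 0.44, 0.0887 with no filter on dim genes, 0.0558 with all probe sets tested separately and 0.181 with only the arrays compared. It was 0.0683 to 0.0912 without any 1 of replicates 2, 3 and 4 of KO sham or of WT sham.

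Gstm1 and Gstm2 are mu-class transferases that conjugate electrophiles in the cytosol. For Gstm2 the signals were 5582, 4779, 5848 and 4879 in KO TAC and 5741, 6396, 8099.9 and 6476 in KO sham, against 4016, 4028, 3428 and 4293 in WT TAC and 4564, 4740.0, 4715 and 4547 in WT sham. Both KO groups lay above the WT group of the same operation with no overlap. The genotype difference was 0.42 ± 0.11 log2 under TAC (adjusted p = 0.0731) and 0.51 ± 0.11 log2 after sham (adjusted p = 0.0564), and neither passed. The sham difference passed under 5 of 15 alternatives and the TAC difference under 2 of 15. Against sham, TAC gave -0.34 ± 0.11 log2 in KO (adjusted p = 0.149) and -0.24 ± 0.11 log2 in WT (adjusted p = 0.66).

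Gstm1 changed with load in KO hearts in the opposite direction to Gpx3. Its signals were 9484, 8148, 9170.0 and 10009 in KO TAC and 12845, 13638, 14966 and 13961 in KO sham. In WT hearts they were 10053, 11641, 11095 and 11251 after TAC and 11964, 11679, 11414 and 12024 after sham. KO TAC was the lowest of the 4 groups and KO sham the highest, each with no overlap with any other group, while WT TAC and WT sham overlapped.

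Gstm1 fell with TAC in KO hearts by 0.59 on the log2 scale (SE 0.09, 1.51-fold lower, limma adjusted p = 0.00284). In WT hearts the TAC difference was -0.10 ± 0.09 log2 (adjusted p = 0.836), with a 95% interval from -0.29 to 0.09. KO TAC was -0.26 ± 0.09 log2 from WT TAC (adjusted p = 0.155), and KO sham 0.23 ± 0.09 from WT sham (adjusted p = 0.418), so the genotype difference had opposite signs at the 2 operations without passing at either. With arrays centred on their medians it was -0.07 under TAC and 0.18 after sham. The difference between the TAC responses, KO minus WT, was -0.49 ± 0.13 log2, with an unadjusted p of 0.00139 and an adjusted p of 0.257 in limma, and -0.25 with centring.

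Gstm1 had 4 probe sets, and mu-class genes are similar in sequence. The representative set, with a mean signal of 11459, carries the suffix x that marks probes able to bind other transcripts, so its signal is uncertain in part. The set with a mean signal of 9792, which does not carry it, correlated with it at r = 0.98 over the 16 arrays and gave -0.62 ± 0.10 log2 for KO TAC against KO sham (adjusted p = 0.00868 with all probe sets tested separately). The set with a mean of 1631 gave -0.74 ± 0.20 (adjusted p = 0.0874), and the dimmest set, with a mean of 413.5, gave -0.35 ± 0.26 (adjusted p = 0.613). The sign was the same in all 4 sets for TAC in KO. Between genotypes under TAC, the set with a mean of 9792 gave -0.21 ± 0.10 with overlapping groups (-0.019 with centring), and the dimmest set gave 0.17 ± 0.26. With arrays centred on their medians the representative set gave -0.47 (adjusted p = 0.0824), with only the arrays compared the adjusted p was 0.0501, and without the 3 arrays named for Gpx3 the difference was -0.51 (adjusted p = 0.0673).

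Gstk1, the kappa-class transferase of mitochondria and peroxisomes, also fell with TAC in KO hearts. Its signals were 5013, 4195, 4450.0 and 4428 in KO TAC and 6117, 7596, 6371 and 7257 in KO sham, against 5764, 6317, 4616 and 6286 in WT TAC and 6701, 6610.3, 6359 and 6003 in WT sham. The KO TAC arrays lay below all arrays of both sham groups and overlapped WT TAC through 1 WT TAC array, replicate 3 at 4616.

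Gstk1 fell by 0.59 on the log2 scale with TAC in KO hearts (SE 0.11, 1.51-fold lower, limma adjusted p = 0.0131). Its mean was 4521 ± 347 in KO TAC, against 6835 ± 704 in KO sham. In WT the TAC difference was -0.17 ± 0.11 log2 (adjusted p = 0.763), and between genotypes under TAC it was -0.34 ± 0.11 log2 (adjusted p = 0.152). Without WT TAC replicate 3 the difference between KO TAC and WT TAC gave -0.44 and passed (adjusted p = 0.0424). The difference between the TAC responses was -0.42 ± 0.16 log2 (unadjusted p = 0.0193, adjusted p = 0.414), and -0.18 with arrays centred on their medians. The call in KO was lost with arrays centred on their medians (-0.47, adjusted p = 0.208), with only the arrays compared (0.0591), without the 3 arrays named for Gpx3 (-0.53, adjusted p = 0.0876), with spike-in signal as a covariate (0.0622) and without KO TAC replicate 2 (0.0537).

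Gsto1, the omega-class transferase that acts as a thiol transferase and dehydroascorbate reductase, went the other way from Gstm1 and Gstk1, without passing. Its signals were 14477, 15864, 13695 and 12805 in KO TAC and 11943, 13128, 11840.2 and 12346 in KO sham, against 11505, 11676, 11874 and 11295 in WT TAC and 12553, 12023, 10697 and 11175 in WT sham. All KO TAC arrays lay above all WT TAC arrays. KO TAC was 0.29 ± 0.09 log2 from WT TAC (adjusted p = 0.111) and 0.20 ± 0.09 from KO sham (adjusted p = 0.275). Its other probe set gave 0.37 ± 0.14 and 0.15 ± 0.14 for the same comparisons, and the sets correlated at r = 0.53. On that other set KO TAC, at 10416.8 to 13637.6, overlapped WT TAC, at 7207.3 to 11576.5.

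The supply enzymes were dimmer and more variable. Gclc averaged 685 ± 104 in KO TAC, 631 ± 156 in KO sham, 553 ± 126 in WT TAC and 622 ± 146 in WT sham on its brighter set. KO TAC was 0.14 ± 0.21 log2 from KO sham on that set (adjusted p = 0.826) and -0.44 ± 0.21 on the other (adjusted p = 0.373), and the sets correlated at r = 0.08. Gsr averaged 530 ± 107 in KO TAC, 513 ± 77.5 in KO sham, 582 ± 122 in WT TAC and 557 ± 222 in WT sham. KO TAC was 0.04 ± 0.25 log2 from KO sham on the brighter Gsr set (adjusted p = 0.973) and 0.46 ± 0.19 on the other (adjusted p = 0.292), with r = 0.25 between them. Neither gene was called in any comparison, and the sets of each gave opposite signs or unequal sizes, so no direction is given.

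**Figure D2:**
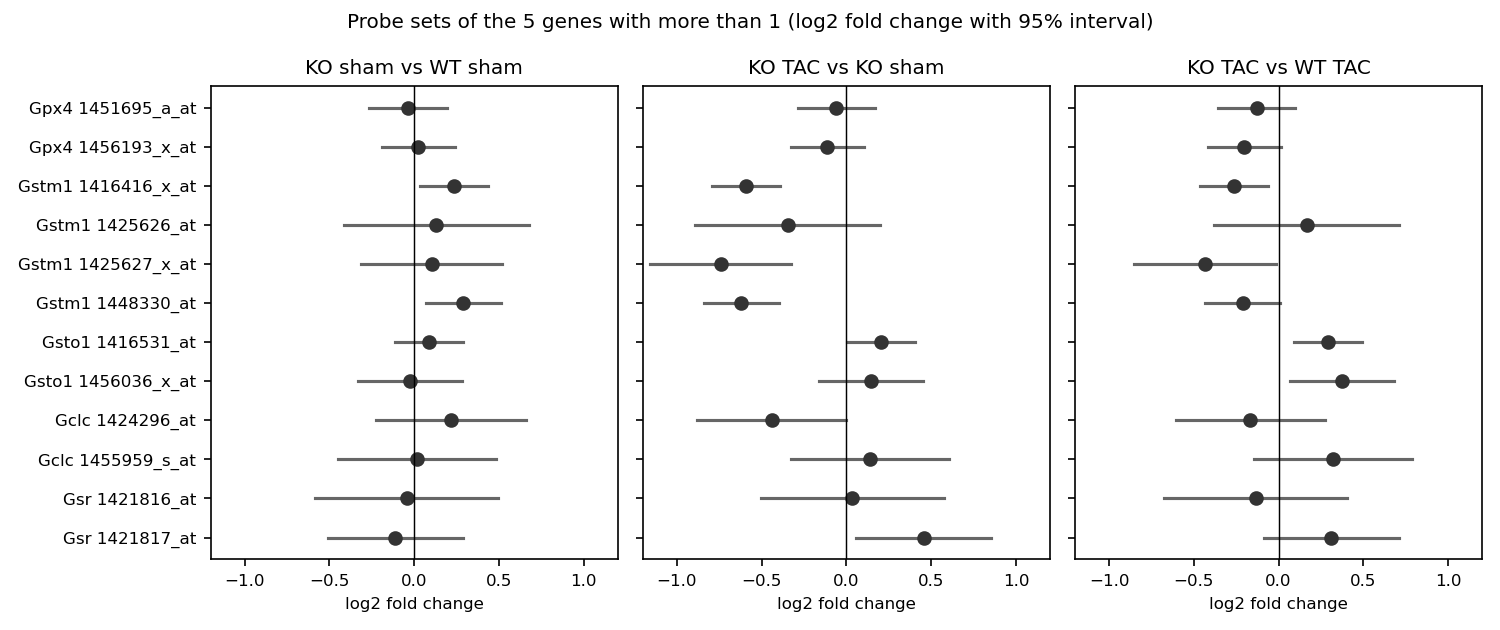
Log2 differences of the members' probe sets between groups, for the 5 genes with more than 1 set, with 95% intervals from the fit to all probe sets. The 4 Gstm1 sets lie below 0 for KO TAC against KO sham, from -0.74 to -0.35, whereas the Gclc sets lie on both sides of 0.

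Across the members, 1 of 10 was called in KO sham against WT sham (Gsta4, higher), where 0.742% of the 10916 genes were called, and 0.229% as higher. Among the 1092 brightest tested genes 2.11% were called, and 8 of the 10 members lay among those. The groups did not overlap for 4 members, all higher in KO (Gpx3, Gsta4, Gstm1 and Gstm2), where 3.29% of all genes were higher and 2.62% lower without overlap. An unadjusted p under 0.05 was found for 5 members and for 8.52% of genes. The differences ran from -0.04 to 0.51, and 9 of 10 were positive. Their median was 0.16, against 0.02 over all genes tested. Among the marker lists, medians there were 0.16 for cardiomyocyte markers (10 of 10 positive) and 0.28 for macrophage markers (8 of 9 positive). They were 0.05 for fibroblast, 0.09 for endothelial and -0.14 for smooth muscle markers.

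For KO TAC against KO sham, 1 member was higher (Gpx3) and 2 were lower (Gstm1 and Gstk1), where 2.57% of all genes were called, 1.58% as higher and 0.98% as lower. Among the 1092 brightest genes the share was 5.68%. The groups did not overlap for Gpx3 upward, against 5.42% of genes, and for Gstm1, Gstk1 and Gsta4 downward, against 5.35%. An unadjusted p under 0.05 was found for 6 members and for 16% of genes. The members' median was -0.04, against 0 over all genes, with 5 differences positive and 5 negative.

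For KO TAC against WT TAC, 1 member was called, Gpx3, where 2.46% of all genes and 5.77% of the 1092 brightest were called, 1.32% of all genes as higher and 1.14% as lower. No overlap was found for 4 members that were higher (Gpx3, Gsta4, Gstm2 and Gsto1), against 5.13% of genes, and for 1 that was lower (Gstm1), against 4.42%. For 6 members and 16.4% of genes the unadjusted p was under 0.05. Median differences were 0.26 for the members and 0.03 for all genes.

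For WT TAC against WT sham, 0 members were called by limma, where 0% of all genes were called and 7.62% had an unadjusted p under 0.05. No member had an unadjusted p under 0.05, and the differences ran from -0.24 for Gstm2 to 0.14 for Gpx1. Gstm2 was the member whose WT groups did not overlap, with WT TAC lower, where 1.64% of genes were lower and 2.64% higher without overlap. For the difference between the TAC responses 0 members and 0% of all genes passed, although 3 members and 10.3% of genes had an unadjusted p under 0.05. These 3 were Gpx3 upward and Gstm1 and Gstk1 downward.

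**Figure D3:**
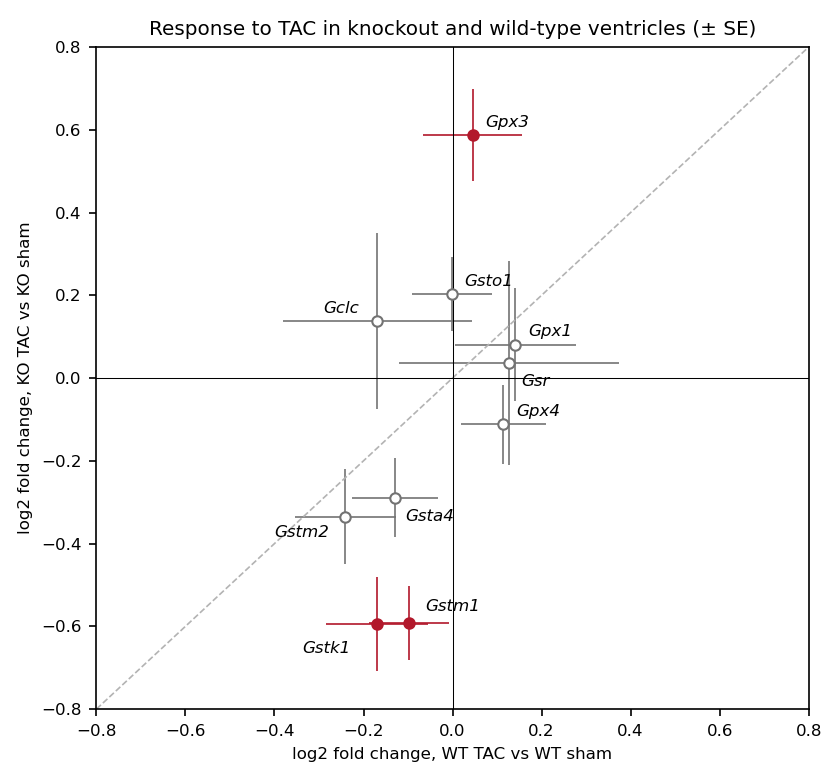
Log2 response to TAC in KO hearts against the response in WT hearts for the 10 members, with standard errors (filled points were called in KO, and the dashed line marks equal responses). Gpx3 sits at 0.59 in KO and 0.045 in WT, and Gstm1 and Gstk1 at -0.59 in KO and between -0.17 and -0.10 in WT.

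**Figure D4:**
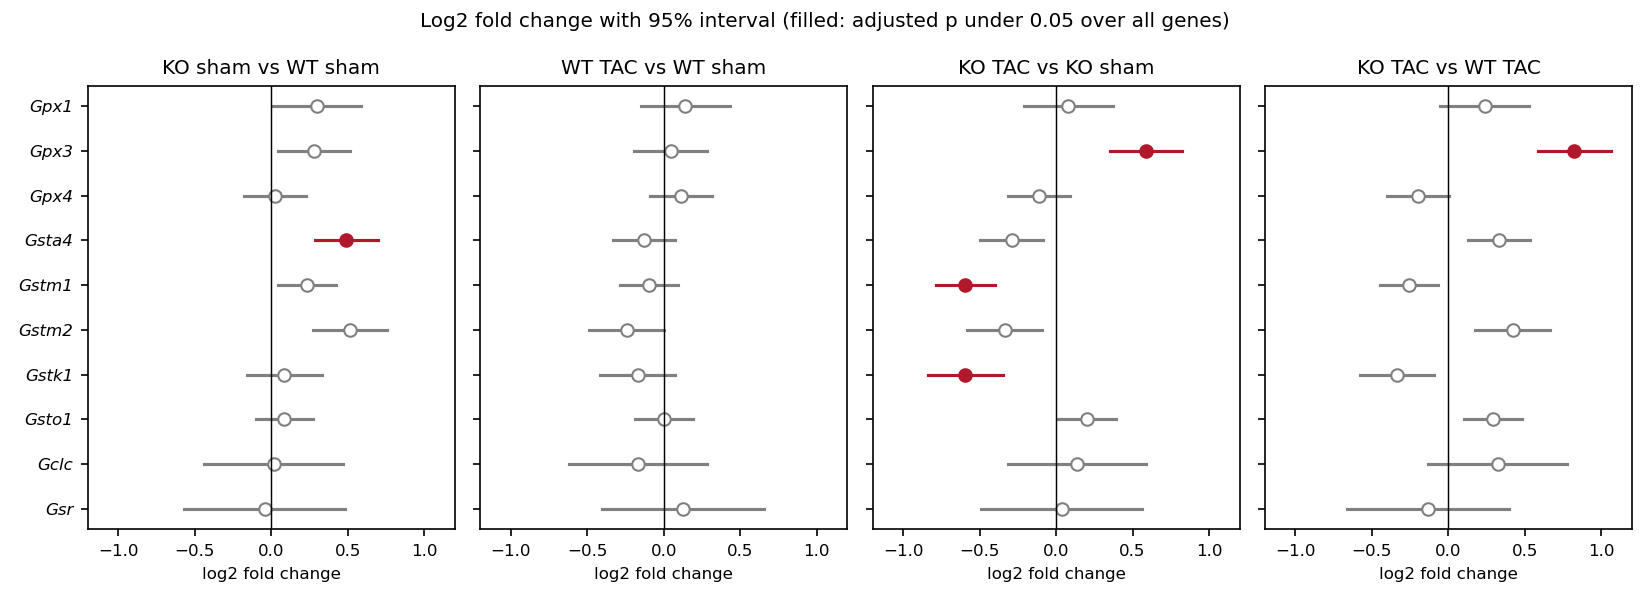
Log2 differences of the 10 members in the 4 group comparisons, with 95% intervals (filled points were called). Gpx3 lies furthest above 0 in both comparisons that include KO TAC, and Gstm1 and Gstk1 lie furthest below 0 for KO TAC against KO sham.

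Other marker lists were read in the same way. The 9 macrophage markers summed to 29327.8 to 36808.7 in KO TAC, 26002.7 to 29589.6 in KO sham, 21069.1 to 28037.7 in WT TAC and 22666.1 to 24734.2 in WT sham. The complement genes C1qa, C1qb and C1qc, 3 of the 9, were higher in KO TAC than in WT TAC, where 1.32% of all genes were called higher.

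The 10 cardiomyocyte markers, which identify the main muscle cells of the ventricle, summed to 488679 to 609511 in KO TAC, 571838 to 675401 in KO sham, 627906 to 852238 in WT TAC and 519448 to 609522 in WT sham. None of the 10 was called in any comparison, with the smallest adjusted p for Pln, the calcium pump inhibitor phospholamban (-0.42 ± 0.11, KO TAC below WT TAC, 0.0679). Their median difference was -0.37 for KO TAC against WT TAC, with 1 of 10 positive, and -0.21 for KO TAC against KO sham, with 2 of 10 positive. For KO sham against WT sham it was 0.16, with 10 of 10 positive. For the difference between the TAC responses, KO minus WT, the median was -0.50, with 0 of 10 positive. For the same difference Gstm1 was at -0.49 and Gstk1 at -0.42. For WT TAC against WT sham the marker median was 0.27, with 9 of 10 positive, whereas Gstm1 was -0.10 and Gstk1 -0.17. For KO TAC against KO sham both genes were -0.59. The part of the cardiomyocyte markers in the members' differences was not tested. The 8 endothelial markers and the 4 tested smooth muscle markers were not called either, with smallest adjusted p-values of 0.165 (Kdr) and 0.276 (Acta2), both for KO TAC against WT TAC. Of the erythroid list, 2 of 6 markers were tested. Alas2, which starts haem synthesis in red cell precursors, was higher in KO TAC than in WT TAC by 1.07 ± 0.22 log2 (limma adjusted p = 0.0189). Of all genes, 1.32% were called higher there. Hbb-b2 overlapped, at 525 to 910.5 in KO TAC and 543.8 to 724.6 in WT TAC. Slc4a1, which was not tested, was 75 to 104.5 in KO TAC and 99.3 to 235.4 in WT TAC. No adipocyte or liver marker was bright enough to be tested, and their summed signals reached at most 562.6 and 330.2.

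Of 4 tested atrial markers, Nppa, the atrial natriuretic peptide that loaded ventricles also express, lay between 55592 and 69234 in KO TAC, 22314 and 29135 in KO sham, 32398 and 48346 in WT TAC and 15482 and 23588 in WT sham. KO TAC lay above all other groups, as for Gpx3. Nppa was higher in KO TAC than in KO sham by 1.25 ± 0.16 log2 (limma adjusted p = 0.000659) and than in WT TAC by 0.67 ± 0.16 log2 (adjusted p = 0.0356). The other tested atrial markers were not called, and with TAC they went the other way from Nppa. It was the 1 of 4 with a positive difference for KO TAC against KO sham (list median -1.14) and for WT TAC against WT sham (-1.98). All 4 were positive for KO against WT, with medians of 2.20 under TAC and 1.25 after sham. Myl7, the atrial myosin light chain, ranged from 160 to 2117 in KO TAC, 466.7 to 12058 in KO sham, 12.5 to 785.2 in WT TAC and 74.4 to 3427 in WT sham. The part of these markers in the members' differences was not tested.

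The patterns of the 4 called members were compared with those of all tested genes over the 16 arrays, as a description in which arrays share group and scaling. The genes most like Gpx3 were Flnc, a muscle cross-linker of actin (Pearson r = 0.92, and 0.65 after group means were removed), Myh7, the slow myosin heavy chain (0.91 and 0.64), and Des, the intermediate filament desmin (0.91 and 0.79). For Gsta4 they were Mid1ip1 (0.92 and 0.72), Slc25a34 (0.91 and 0.67) and Gstm2 (0.90 and 0.38). For Gstm1 they were Fam174b (0.91 and 0.48), Adi1 (0.89 and 0.51) and Gnmt, glycine N-methyltransferase (0.89 and 0.80). For Gstk1 they were Mcee, which acts in propionate breakdown (0.94 and 0.82), Ttll1 (0.90 and 0.84) and Psme1, a proteasome activator subunit (0.89 and 0.66).

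Other genes of the pathway were read against the shares of all genes called, which were 2.46% for KO TAC against WT TAC, 0.742% for KO sham against WT sham, 2.57% for KO TAC against KO sham and 0% for WT TAC against WT sham. Of 13 other glutathione transferases tested, 1 was called: Gstt1, a theta-class enzyme, was lower in KO TAC than in KO sham. It averaged 867 ± 13.3 in KO TAC, 1568 ± 103 in KO sham, 1026 ± 129 in WT TAC and 1369 ± 241 in WT sham, a difference of -0.85 ± 0.12 log2 between the KO groups (adjusted p = 0.00248 in limma, and 0.0534 without the 3 arrays named for Gpx3). In that comparison 1 of the 13 differences was positive and the list median was -0.24, against 0 over all genes. In the other comparisons 0 of 13 were called. The smallest adjusted p-values were those of Gstm5 after sham (0.32 ± 0.09 log2, KO above WT, adjusted p = 0.145), Gstp1 under TAC (-0.32 ± 0.11, KO below WT, adjusted p = 0.142) and Gstt1 for TAC in WT (-0.41 ± 0.12, adjusted p = 0.58).

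Of 2 other peroxidases tested, none was called. Gpx7, an endoplasmic reticulum peroxidase, was 742 ± 146 in KO TAC, 589 ± 104 in KO sham, 483 ± 32.6 in WT TAC and 479 ± 64.7 in WT sham. KO TAC was 0.60 ± 0.16 log2 from WT TAC (adjusted p = 0.0647), and this passed under 4 of 15 alternatives. Gpx8, its relative, was 0.29 ± 0.11 log2 in KO TAC against KO sham (adjusted p = 0.205) and 0.28 ± 0.11 in WT TAC against WT sham (adjusted p = 0.621).

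Of 12 tested genes of glutathione synthesis, transport and breakdown, 1 was called. Slc3a2, the heavy chain of the cystine and amino acid exchangers, was higher in KO TAC, at 2521 ± 148, against 1875 ± 132 in WT TAC (0.43 ± 0.08 log2, limma adjusted p = 0.0148). That call was lost under 4 of 14 alternatives, with adjusted p up to 0.143, and without KO TAC replicate 2 (0.0537). None of the 12 was called after sham, where Slc25a39, a mitochondrial glutathione carrier, had the smallest adjusted p (-0.29 ± 0.11 log2, KO below WT, 0.432). None was called for TAC in KO, where Slc3a2 was 0.27 ± 0.08 (adjusted p = 0.114), or for TAC in WT, where Oplah, which recycles 5-oxoproline, was -0.37 ± 0.18 (adjusted p = 0.658).

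NADPH feeds Gsr, and 3 of 13 tested genes of its supply differed between genotypes under TAC (2.46% of all genes) and the same 3 after sham (0.742%). Nnt, the mitochondrial transhydrogenase, averaged 20183 ± 1725 in KO TAC, 30648 ± 2773 in KO sham, 14263 ± 1386 in WT TAC and 14249.6 ± 991 in WT sham. It was higher in KO than in WT after sham by 1.10 ± 0.10 log2 (adjusted p = 3.2e-05) and under TAC by 0.50 ± 0.10 log2 (adjusted p = 0.0189), and it was lower in KO TAC than in KO sham at -0.60 ± 0.10 log2 (adjusted p = 0.0063). With the mean of its probe sets in place of the brightest, none of the 3 passed, at 0.63, 0.38 and -0.42 (adjusted p = 0.568, 0.554 and 0.523), and its call for KO TAC against WT TAC was lost without WT TAC replicate 1, WT TAC replicate 2 or KO TAC replicate 3 (adjusted p = 0.0565 to 0.0671). It was also lost with no filter on dim genes (0.0602), with only the arrays compared (0.126), without the 3 arrays named for Gpx3 (0.112) and with spike-in signal as a covariate (0.156). The Nnt call for TAC in KO was also lost with centring (adjusted p = 0.0787), with only the arrays compared (0.0515) and without the 3 arrays named for Gpx3 (0.0537).

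Aldh1l1, the cytosolic formyltetrahydrofolate dehydrogenase, was higher in KO under TAC by 1.80 ± 0.16 log2 (adjusted p = 1.34e-05) and after sham by 1.19 ± 0.16 (adjusted p = 0.00153), and neither passed with the mean of its probe sets. Aldh1l1 was dim, at 362.5 ± 39.5 in KO TAC, 399 ± 25.4 in KO sham, 105 ± 20.7 in WT TAC and 178 ± 39.1 in WT sham. The median signals of the arrays were 108.3 to 163. Me1, the cytosolic malic enzyme, was lower in KO at both operations, at -0.82 ± 0.13 under TAC (adjusted p = 0.00392) and -1.05 ± 0.13 after sham (adjusted p = 0.000601). Under TAC the Me1 call was lost with arrays centred on their medians (-0.62, adjusted p = 0.0969). In WT hearts TAC gave 0 calls among the 13, with the smallest adjusted p for Aldh1l1 (-0.75 ± 0.16, 0.484).

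Of 13 tested targets and regulators of NRF2, the transcription factor that induces glutathione genes, 0 were called in any comparison. Their median differences were 0.17 for KO TAC against WT TAC, 0.21 for KO sham against WT sham, -0.05 for KO TAC against KO sham and 0.04 for WT TAC against WT sham, beside medians of all genes between 0 and 0.03. The smallest adjusted p-values were 0.0609 for Fth1, the ferritin heavy chain, under TAC (-0.45 ± 0.12, KO below WT) and 0.217 for Nqo1, a quinone reductase, after sham (0.47 ± 0.14, KO above WT). For TAC, Fth1 was -0.31 ± 0.12 in KO (adjusted p = 0.196) and 0.35 ± 0.12 in WT (adjusted p = 0.585). 7 tested glutaredoxins and glyoxalases also gave 0 calls, with the smallest adjusted p for Ethe1, a mitochondrial sulfur dioxygenase (-0.26 ± 0.11, KO TAC below KO sham, 0.222).

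A list of selenoprotein synthesis and selenium supply also held other selenoproteins and the selenium-binding Selenbp1, and 1 of its 18 tested genes was called. Gpx1, Gpx3 and Gpx4 are selenoproteins but do not depend on every gene of this list. Selenbp1, a selenium-binding methanethiol oxidase, averaged 2327 ± 48.4 in KO TAC, 3626 ± 499 in KO sham, 3212 ± 319 in WT TAC and 3650 ± 234 in WT sham. It was lower in KO TAC than in KO sham, at -0.63 ± 0.11 log2 (adjusted p = 0.00607), and than in WT TAC, at -0.46 ± 0.11 (adjusted p = 0.0367). The difference from WT TAC was lost under 7 of 15 alternatives and without 7 of the 8 compared arrays in turn, and the difference from KO sham under 3 of 15. No gene of the list was called for TAC in WT, where Eefsec, an elongation factor for selenocysteine, was 1.12 ± 0.37 (adjusted p = 0.585), or after sham, where Selenom was 0.38 ± 0.13 (adjusted p = 0.345).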

How the data were processed

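Left ventricular RNA of 16 mouse samples, in 4 groups of 4 taken from the titles, was hybridised to Affymetrix arrays. The authors deposited signal intensity on a linear scale, for which the submitters' processing notes name GCOS 1.4. The arrays were scaled before deposit: means trimmed at the 2nd and 98th percentiles were 499.6 to 499.98. A shared change of many bright genes within that range moves the others the opposite way. Signals above the 98th percentile do not enter the mean. The sources used here give neither algorithm settings nor detection calls.

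Of 45101 probe sets, 64 were controls, 34945 had 1 gene in the platform annotation, 932 several and 9160 none; 34741 were matched by gene ID to RefSeq GRCm38.p6. Signals under 11.9, the 10th percentile, were set to it, log2 was taken, and each of 18193 genes was represented by its brightest probe set. The dimmest 40% of genes were left out. Limma 3.58.1 (R 4.3.3) was fitted with 1 coefficient per group. The code was also run on simulated data with independent noise and changes larger than those of the called members. That run does not bear on calls of the size found here. Promoter windows are from RefSeq, and figures were drawn with matplotlib 3.10.9 in Python 3.11.15.

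The members, lists and rules were chosen with earlier results of these data known. All members and every called gene of the lists are named, with the gene of smallest p in comparisons described that had no call. Alternatives were other normalizations, floors, filters, probe set rules, limma options, spike-in adjustments, a replicate block and leaving out arrays.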

Additional observations from a re-analysis of the deposited data

Results flagged for a closer look

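Gsta4 in KO sham replicate 1 was low for its group, at 6394.5, against 7557.3 to 7773.2 on the other 3 KO sham arrays, and the gap was 0.856 of the group's range. It lay above all WT sham arrays. The Gstm1 probe set with a mean signal of 1631 was low in KO TAC replicate 2, at 792.8, against 1247.9 to 1351.1 on the other 3, a gap of 0.851 of the range. Of 68 groups of 4 arrays checked, chance sets apart about 5%.

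On the brightest Gstm1 probe set the genotype difference had opposite signs, with KO TAC below WT TAC on every array and KO sham above WT sham on every array. The set with a mean signal of 9792 overlapped between KO TAC and WT TAC, the dimmest set was 0.17 there, and with arrays centred on their medians the brightest set was -0.07. The difference between the TAC responses, KO minus WT, was -0.49 log2 (limma adjusted p = 0.257) and did not pass, and it was -0.25 with centring.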

How the results depend on the processing

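With 4 arrays per group, intervals are wide for the dim genes Gclc and Gsr. No called difference of the members, the other pathway genes or Ppara changed sign under any alternative. The called marker genes were not followed under the alternatives. Members called in KO sham against WT sham numbered 2 in place of 1 with quantile normalization, a 60% filter, trend and robust, array weights or the spike-in covariate, where Gstm2 was added, and 0 with median centring, no filter, all probe sets separately, only the arrays compared or the replicate block, and 0 to 2 with single arrays left out. For KO TAC against KO sham the count of 3 became 1 with centring (Gpx3), 2 with the spike-in covariate (Gpx3 and Gstm1), 0 with only the arrays compared and 0 once KO TAC replicates 2 and 3 and WT TAC replicate 3 were dropped for their extreme spike-in signal, and 2 to 3 with single arrays left out. For KO TAC against WT TAC the count of 1 became 2 with a 60% filter and 4 with trend and robust, and 1 to 2 with single arrays left out. For TAC in WT and for the interaction it was 0 throughout. The cause of these differences was not tested.

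With centring, the median difference over all genes was -0.035 for KO sham against WT sham, 0.13 for KO TAC against KO sham, -0.12 for WT TAC against WT sham, 0.22 for KO TAC against WT TAC and 0.25 for the interaction. It changed the split of called genes from 173 higher and 107 lower to 158 and 18 for TAC in KO, from 25 and 56 to 7 and 35 for KO sham against WT sham, and from 144 and 124 to 238 and 40 for KO TAC against WT TAC. It moved Gsta4 and Gsto1 between KO TAC and WT TAC to 0.52 and 0.48, neither called. Same-numbered arrays gave correlations of deviations of -0.185 to 0.137 over 24 pairs, 5 of them over 0.1. Between KO sham and KO TAC they were 0.013 to 0.137. Of 16 arrays, 7 correlated best with their own number. The labels do not say whether the numbers pair the samples, and these values do not settle it. With the replicate block the Gsta4 sham call was lost (adjusted p = 0.0644), as was that of Selenbp1 between KO TAC and WT TAC (0.0684), and the calls over all genes were 64, 220 and 187 in the 3 comparisons with calls, in place of 81, 280 and 268.

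Signs turned for results that were not called. For KO sham against WT sham, Gpx4 was -0.059 with quantile normalization, -0.03 with centring, -0.005 with the mean of probe sets and -0.005 with the spike-in covariate (-0.047 to 0.056 with arrays left out), Gclc was -0.039 with centring, -0.057 with array weights and -0.10 with the spike-in covariate (-0.13 to 0.16), and Gsr was 0.049 with array weights and 0.007 with the covariate (-0.24 to 0.18). For TAC in WT, Gpx3 was -0.075 with centring, -0.02 without the 3 arrays and -0.038 with the covariate (-0.02 to 0.094), Gpx4 was -0.006 with centring, Gsto1 was 0.018 with the covariate (-0.039 to 0.038), Gsr ranged from -0.075 to 0.35 with arrays left out, and Fth1 was -0.15 with quantile normalization, under which another of its probe sets became the brightest. For TAC in KO, Gpx4 was 0.025 with quantile normalization and 0.014 with centring, Gclc was -0.15 with the mean of probe sets and -0.44 without suffixed sets (-0.005 to 0.28), and Gsr was -0.042 with the covariate (-0.081 to 0.16). For KO TAC against WT TAC, Gclc was -0.17 without suffixed sets, Gsr was 0.057 with centring and 0.089 with the mean of probe sets, and Fth1 was 0.009 with quantile normalization and that other probe set. For the interaction, Gpx1 was 0.19 with centring, 0.021 without the 3 arrays and 0.11 with the covariate (-0.15 to 0.01), Gpx4 was 0.02 with quantile normalization and 0.02 with centring, Gsta4 was 0.086 and Gstm2 0.15 with centring (Gstm2 -0.16 to 0.002), Gclc was -0.038 with the mean of probe sets and -0.38 without suffixed sets, and Gsr was 0.16 with centring and 0.17 with the mean (-0.32 to 0.11).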
